A study of Arabidopsis thaliana with 3 samples.

Results

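The WRKY transcription factor genes of Arabidopsis thaliana were taken as all nuclear protein-coding genes of the gene table whose symbol is WRKY followed by a number. This rule found 67 genes among 27444 protein-coding genes on the 5 nuclear chromosomes. For sequencing, chromatin was immunoprecipitated with an anti-GFP (green fluorescent protein) antibody from 7-day-old seedlings grown under low blue light, with 1 library each of a line overexpressing TZP (OX TZP), a line overexpressing ZFHD10 (OX ZFHD10) and the wild type Col-0. Library titles carry GFP in all 3 cases, and Col-0 is the line without an overexpressed factor. The lists of enriched regions, called islands, of OX TZP and OX ZFHD10 were analysed, and Col-0 enters no comparison here. TZP is a nuclear zinc-finger protein that acts in phytochrome and blue light signalling, and ZFHD10 belongs to the zinc-finger homeodomain family of plant transcription factors. The promoter that drives either protein, the number of independent lines and the control library of the island calls are not given in the sources used here. Whole seedlings were fixed, so that all tissues are mixed.

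WRKY proteins bind DNA through a domain named after its conserved amino acids, followed by a zinc finger, and recognise a short element known as the W box. They are best known as regulators of pathogen defence, leaf senescence, nutrient supply and responses to salicylic and abscisic acid, and some act in growth and light responses. Many WRKY genes are themselves switched on by stress signals, and members are known to regulate each other. Members fall into group I, which carries a pair of WRKY domains, group II, with a single domain and divided into IIa to IIe, and group III, with a single domain and another kind of zinc finger. The groups used here follow that usual classification and were not derived from sequence. They held 12 genes in group I, 3 in IIa, 8 in IIb, 18 in IIc, 7 in IId, 7 in IIe and 12 in group III.

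For OX TZP 11684 islands with 2112203 reads were deposited, 9 of them on organelle genomes, and for OX ZFHD10 16122 with 4731495 reads, all on nuclear chromosomes. Whole-library depth is unknown, so read densities were set against the median of their own list and not between lists. The median island held 163 reads per kb in OX TZP and 262 in OX ZFHD10. With 1 library per line nothing has a replicate check, no difference was tested, and each interval of a read density below covers counting error only. Shorter OX TZP islands were denser over the whole nuclear list (Spearman correlation of length and density -0.52 over islands, which are not replicates), while the OX ZFHD10 value was 0.09. A gene was called when an island overlapped it, or the 1000 bp to either side, by at least 1 bp. Island positions are given on TAIR10, counted from 1. Strand was not known, so an island outside a gene could lie before its start or after its end.

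Most WRKY genes lay at an island of OX ZFHD10, and a smaller majority at one of OX TZP. In OX TZP 39 of the 67 WRKY genes had an island (58.2%, 95% Wilson interval 46.3 to 69.3%), against 47.2% of all protein-coding genes. In OX ZFHD10 54 of 67 did (80.6%, 69.6 to 88.3%), against 65.9% of all protein-coding genes. The Wilson intervals treat genes as a sample and are given to show how few genes stand behind a share, not as a test. Islands of each line were found at 34 WRKY genes (50.7%, 39.1 to 62.3%), against 36.7% of all genes. At 29 of these the islands of the 2 lines overlapped each other, or 43.3% of the 67 against 26.6% of all genes. Of the WRKY genes with an island of each line, 85.3% thus had overlapping ones, against 72.5% among all genes. An OX ZFHD10 island alone was found at 20 WRKY genes (29.9%), near the 29.2% of all genes. Among genes whose lengths lay in the interquartile range of the WRKY genes, the 33 WRKY genes had shares of 57.6% in OX TZP and 78.8% in OX ZFHD10 (62.2 to 89.3%), against 47.7% in OX TZP and 70.0% in OX ZFHD10 for the 7504 protein-coding genes. The length-matched 70.0% lay inside the OX ZFHD10 intervals of both these 33 and all 67 WRKY genes. The median gene length was 2006 bp for WRKY genes against 2078 bp for all genes. Among 115 numbered MYB genes, a transcription factor family of similar kind, 51.3% had an OX TZP island and 62.6% an OX ZFHD10 island.

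**Figure D1:**
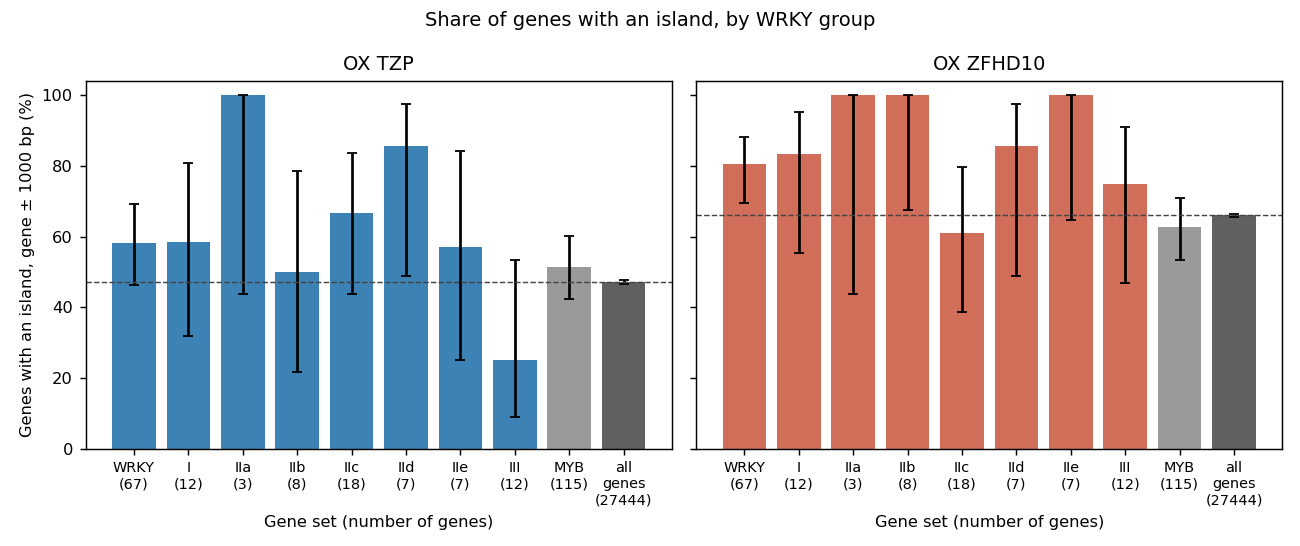
Percent of genes with an island of OX TZP (left) or OX ZFHD10 (right) in the gene or 1000 bp to either side, for all WRKY genes, each WRKY group, numbered MYB genes and all protein-coding genes; black lines give 95% Wilson intervals and the dashed line is the share of all genes. In OX TZP group III stands lowest at 25%, while in OX ZFHD10 groups IIa, IIb and IIe are at 100%.

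The shares varied over the WRKY groups. Every gene of group IIa, 3 in all, and 6 of the 7 of group IId carried an OX TZP island that overlapped an OX ZFHD10 island. Group III had an OX TZP island at 3 of 12 genes (25%, 8.89 to 53.2%) and an OX ZFHD10 island at 9 (75.0%, 46.8 to 91.1%). In groups IIb and IIe every gene had an OX ZFHD10 island, 8 of 8 and 7 of 7, and 4 genes of each also had an OX TZP island. Group IIc was the single group with more OX TZP than OX ZFHD10 genes, at 12 (66.7%, 43.7 to 83.7%) and 11 of 18 (61.1%, 38.6 to 79.7%). In group I there were 7 OX TZP genes and 10 OX ZFHD10 genes among 12. The groups are small, their intervals all overlap within each line, and no difference between them was tested. Median gene length ranged from 1570.5 bp in group III to 2865.5 bp in group IIb, and the part of gene length in these shares was not tested.

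**Figure D2:**
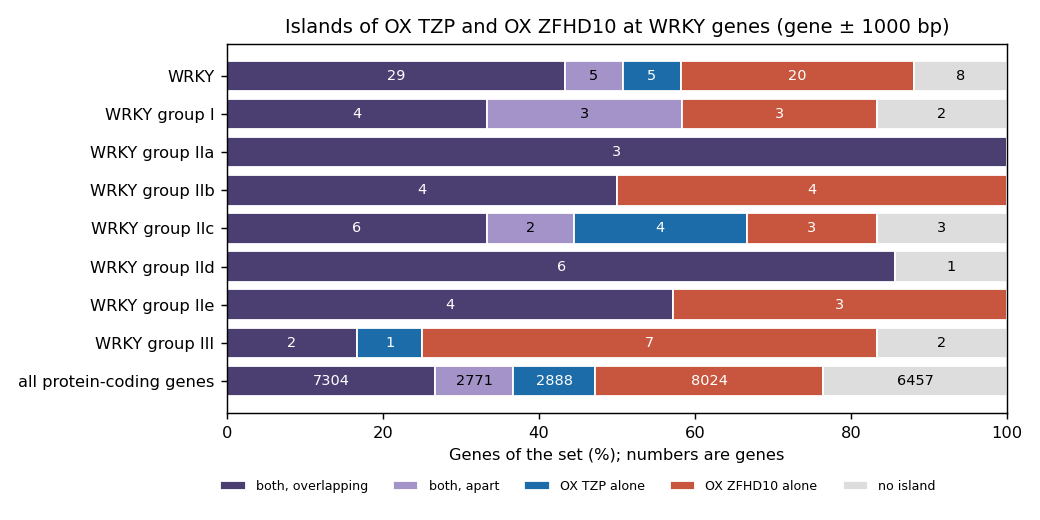
Share of the genes of each WRKY group, of all WRKY genes and of all protein-coding genes, in percent, that had overlapping islands of both lines, islands of both lines that lay apart, an island of 1 line, or none; the numbers are genes. All group IIa genes fall in the overlapping class, and 7 of 12 group III genes in the OX ZFHD10 alone class. The latter class holds 29.9% of all WRKY genes, against 29.2% of all protein-coding genes.

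In OX TZP the islands at WRKY genes stood above the median density of the list in 38 of 52 cases (73.1%), against 48.5% of the islands at all protein-coding genes. In OX ZFHD10 51 of 94 did (54.3%), against 50.3%. The densest OX TZP island of a gene had a median of 178 reads per kb over the 39 WRKY genes, against 164 over all genes with one, and the OX ZFHD10 value was 297 over 54 WRKY genes, against 278. In OX TZP 10 WRKY genes (14.9%) had an island in the densest 10% of the list, against 5.01% of all genes, which is 25.6% of the WRKY genes with an island, against 10.6% of all genes with one. In OX ZFHD10 7 did (10.4%), against 9.23% of all genes, but among genes with an island the share was 13.0% for WRKY genes, against 14.0%. The Poisson interval of the densest island lay wholly above the list's median at 12 WRKY genes in OX TZP, or 17.9% against 4.24% of all genes, and among genes with an island 30.8% against 8.98%. In OX ZFHD10 it did so at 29, or 43.3% against 25.5%, and among genes with an island 53.7% against 38.6%. It lay wholly below it at 2 WRKY genes in OX TZP (2.99%, against 2.02% of all genes), namely WRKY20 and WRKY32. In OX ZFHD10 this held at 4 (5.97%, against 11.0% of all genes), namely WRKY4, WRKY58, WRKY75 and WRKY35. In OX ZFHD10 2 or more islands lay at 32 WRKY genes (47.8%, against 23.5% of all genes), which is 59.3% of those with an island, against 35.6%. In OX TZP 11 did (16.4%, against 12.3%), or 28.2% of those with an island, against 26.0%. The densest OX ZFHD10 islands of WRKY genes were long, with a median of 1425 bp against 800 bp over all genes, and in OX TZP 1050 bp against 900 bp. At the same density a longer island has a narrower interval, and a gene with more islands has more from which the densest is taken. The part of either in the values above was not tested.

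**Figure D3:**
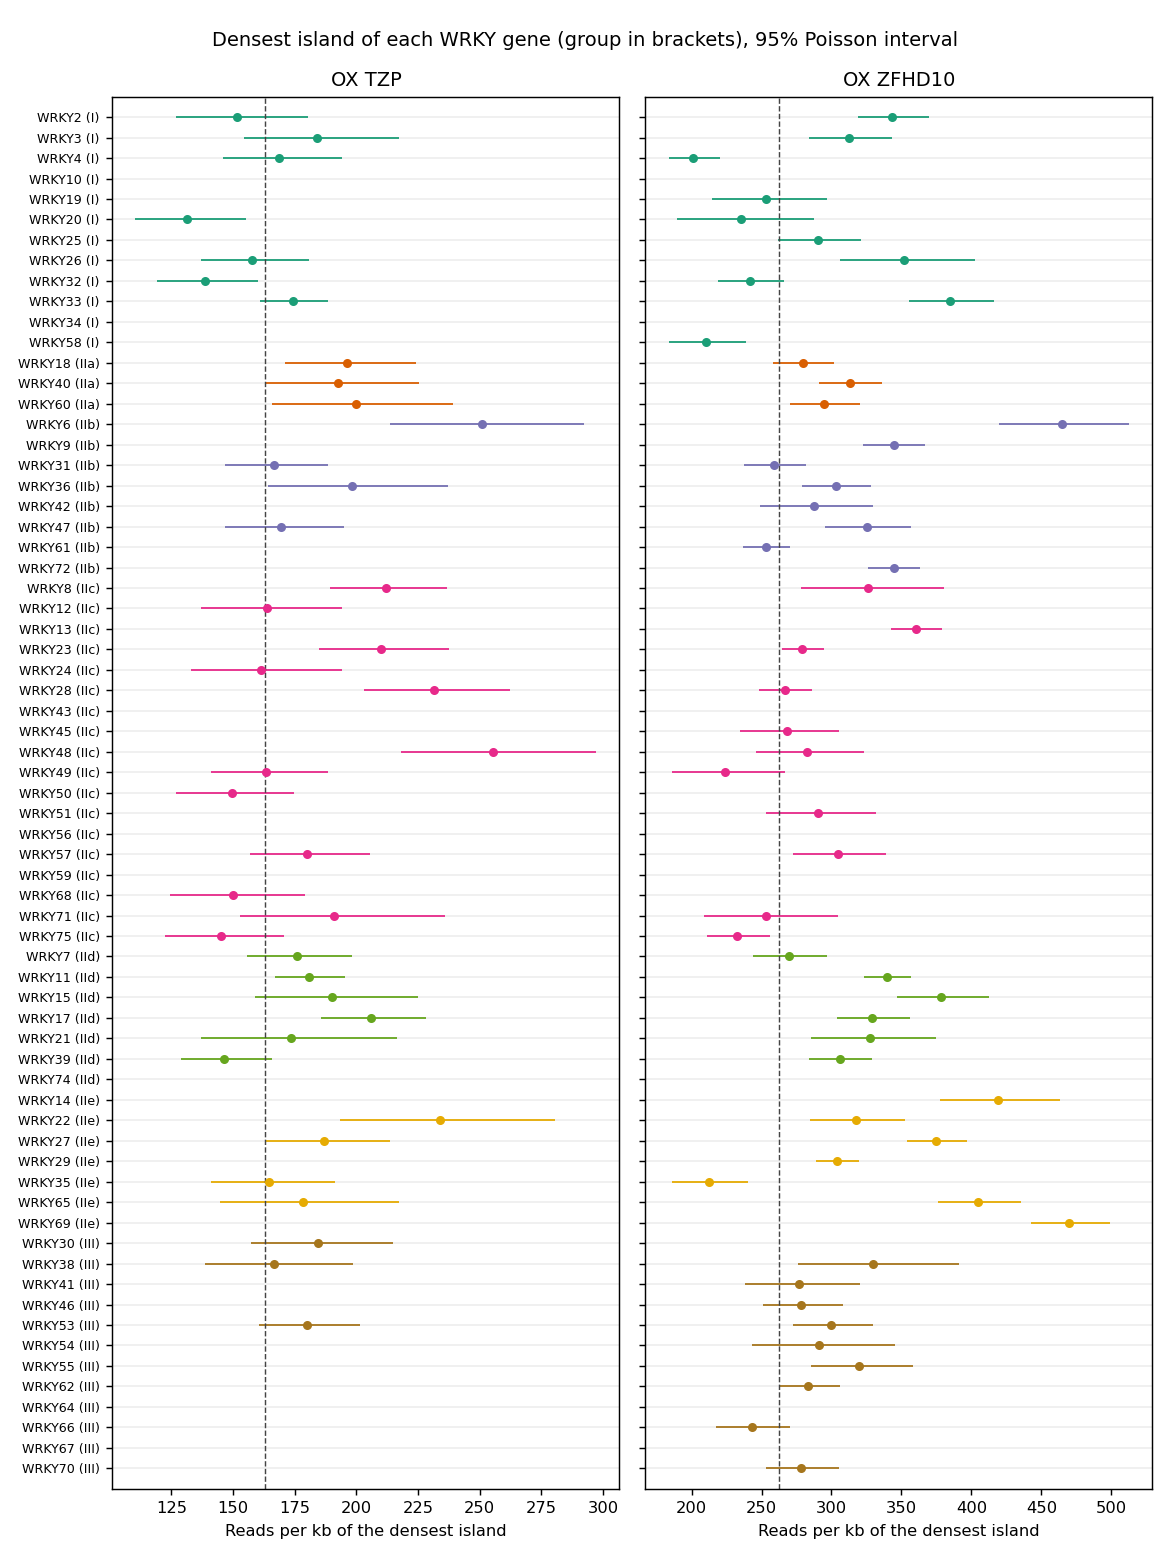
Reads per kb of the densest island of each of the 67 WRKY genes, ordered and coloured by group, in OX TZP (left) and OX ZFHD10 (right); lines are 95% Poisson intervals, dashed lines the median of each nuclear list, and a gene without a point had no island. The scales differ between the panels, and WRKY6 stands far right in both.

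Group IIa holds WRKY18, WRKY40 and WRKY60, which bind each other and act together in basal defence and abscisic acid responses. WRKY18 had 3 OX TZP islands, the densest wholly inside the gene at chr4:15383201-15384300 with 196 reads per kb (171 to 224). For OX ZFHD10 the densest was chr4:15381101-15383400, which crossed an end of the gene and held 280 reads per kb (258 to 302). At WRKY40 the densest OX TZP island, chr1:30383251-30384050, with a density of 192.5 (163 to 225), lay wholly inside the OX ZFHD10 island chr1:30382401-30384850, with 313 (291 to 336). The other end of WRKY40 had an island of each line as well, both centred nearest to its neighbour AT1G80850. WRKY60 had its densest OX TZP island 138 bp outside the gene, at chr2:10631551-10632150, with 200 reads per kb (166 to 239). That island was nearest to AT2G25010, while the second OX TZP island of WRKY60, with 159 reads per kb, lay in the gene to 94.7%. At each of the 3 genes the interval of the densest OX TZP island lay above the median of the list, and at each the islands of the 2 lines overlapped.

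Group IId, whose proteins bind calmodulin, had islands of each line at all genes but WRKY74. WRKY7, WRKY11 and WRKY17 are known as negative regulators of basal defence. Over WRKY11 a single island of each line covered the whole gene, chr4:15289401-15292900 in OX TZP with 633 reads, or 181 per kb (167 to 196), and chr4:15289251-15293850 in OX ZFHD10 with 1563 reads, or 340 per kb (323 to 357). The OX TZP island lay wholly within the other, with 3500 bp shared. WRKY17 had OX TZP islands of 206 and 184 reads per kb and OX ZFHD10 islands of 264 and 329, and islands covered 74.1% of the gene in OX TZP and 81.2% in OX ZFHD10. At WRKY15, a gene tied to cell expansion and osmotic stress, 3 OX TZP islands covered 83.2% of the gene and 2 OX ZFHD10 islands 79.8%. Its densest OX ZFHD10 island, at chr2:9925951-9927350, had 379 reads per kb (347 to 412) and was centred nearest to the neighbour AT2G23321. Islands also covered 66.0% of WRKY7 in OX TZP and 68.8% in OX ZFHD10, while WRKY21 was covered to 28.7% in OX TZP and 9.79% in OX ZFHD10. Among all genes with an island the median cover was 19.9% in OX TZP and 13.0% in OX ZFHD10. The lowest OX TZP density of the group was 146 reads per kb (129 to 166) at WRKY39, whose OX TZP and OX ZFHD10 islands began at the same position.

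Group IIb included the member that ranked highest over both lines. WRKY6, which acts in senescence, defence and phosphate supply, had an OX TZP island at chr1:23020101-23020750 with 163 reads, or 251 per kb (214 to 292), rank 139 of the 11675 nuclear islands. OX ZFHD10 had its island there over chr1:23020151-23021000, holding 395 reads, or 465 per kb (420 to 513), rank 305 of 16122. Both lay outside the gene, by 607 bp in OX TZP and 657 bp in OX ZFHD10, and no other protein-coding gene lay within 1000 bp of either. WRKY36, whose protein binds the promoter of the light regulator gene HY5 and meets the ultraviolet receptor UVR8, had islands of each line across 1 of its ends, chr1:26279051-26279650 in OX TZP with 198 reads per kb (164 to 237) and chr1:26279001-26279600 in OX ZFHD10 with 300 (258 to 347). A further OX ZFHD10 island outside the gene was of like density, at 303 (279 to 329). The midpoints of the overlapping pair lay 50 bp apart. In each line the interval of the densest island of WRKY36 lay above the list's median. The interval of the overlapping OX ZFHD10 island included that median. WRKY42, a further regulator of phosphate supply, had an OX ZFHD10 island alone, with 287 reads per kb (249 to 330). WRKY72, a basal defence gene, had 3 OX ZFHD10 islands that covered 64.3% of it and no OX TZP island. Its densest, with 345 reads per kb (326 to 364), lay in the gene to 4.13%.

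Group IIe includes the flagellin-responsive genes WRKY22 and WRKY29. Its densest OX ZFHD10 island per gene had the highest median of any group, at 375 reads per kb over 7 genes. Of these islands, 4 were in the densest 10% of the list. At 6 of the 7 genes the densest was taken from 2 or more islands. The weaker islands, down to 183 reads per kb at WRKY29, do not enter that median. The densest OX ZFHD10 island at any WRKY gene lay over WRKY69, at chr3:21714301-21716600 with 1081 reads, or 470 per kb (442 to 499), rank 273, and with no OX TZP island at the gene. WRKY14 had 419 reads per kb (378 to 463) and WRKY65 had 405 (376 to 435). At WRKY65 the OX TZP island, with 178 reads per kb (145 to 217), lay wholly inside the OX ZFHD10 island. WRKY27, which affects symptoms of bacterial wilt, was spanned by an OX ZFHD10 island of 3200 bp with 375 reads per kb (354 to 397), while its OX TZP island lay 225 bp outside the gene and nearest to AT5G52840. WRKY22 had an OX TZP island at chr4:525151-525650 with 234 reads per kb (194 to 280), rank 216, inside an OX ZFHD10 island of 317 (285 to 352), both outside the gene. At WRKY29 an OX ZFHD10 island of 5150 bp, the longest at any WRKY gene, lay in the gene to 14.0%. WRKY35 was the exception in the group, with 212 reads per kb (186 to 241) in OX ZFHD10, below the list's median.

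**Figure D4:**
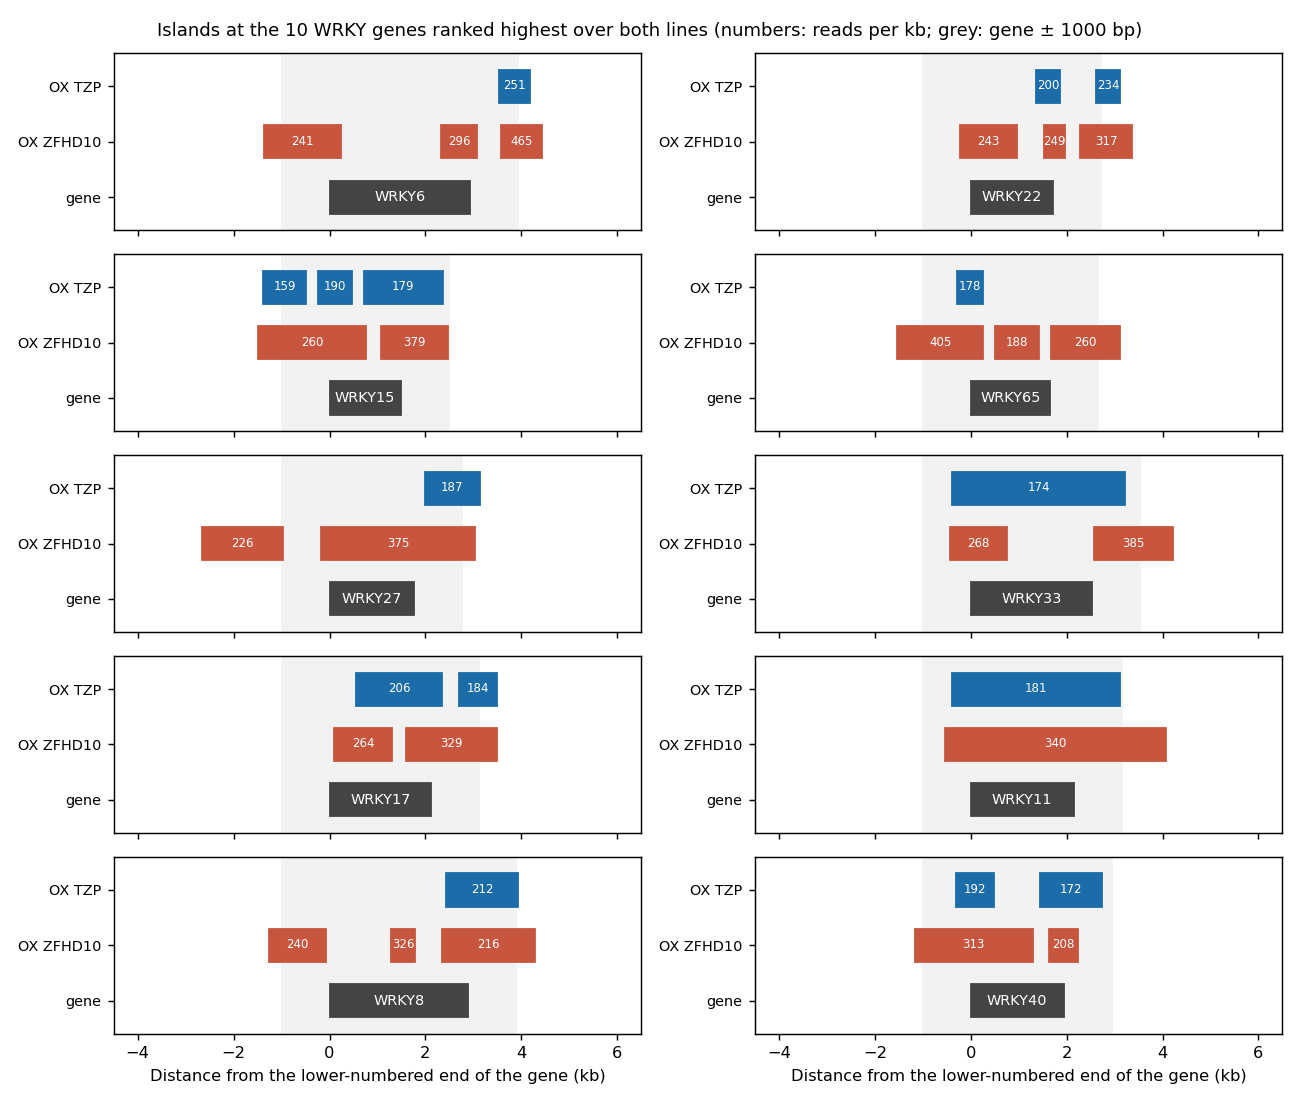
Islands of OX TZP (blue) and OX ZFHD10 (red) at the 10 WRKY genes with the best sum of density ranks over both lines, in kb from the lower-numbered end of the gene (dark bar, strand unknown); numbers in the islands are reads per kb and grey marks the gene and 1000 bp to either side. At WRKY11 both islands span the gene, and at WRKY6 the densest islands of both lines lie outside it.

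Group IIc, the largest, held 4 of the 10 genes with an island in the densest 10% of the OX TZP list and 4 of the 5 genes with an OX TZP island alone. Genes with an OX TZP island alone made up 7.46% of the WRKY genes, against 10.5% of all genes. WRKY48, a negative regulator of basal defence, had the densest OX TZP island of any WRKY gene, at chr5:20090101-20090750 with 166 reads, or 255 per kb (218 to 297), rank 119. The OX ZFHD10 island that overlapped it had 283 reads per kb (246 to 323), near the median of its list. WRKY28, an activator of salicylic acid synthesis, had 231 reads per kb (203 to 262) in OX TZP and 267 (248 to 286) in OX ZFHD10. Both islands lay outside WRKY28, by 314 bp in OX TZP and 464 bp in OX ZFHD10, the second also within 1000 bp of KCO6. WRKY8, which acts in salt and virus responses, had 212 (189 to 237) and WRKY23, an auxin-responsive gene of root development, 210 (185 to 238) in OX TZP. At these 4 genes the OX TZP islands stood high in their list and all overlapped an OX ZFHD10 island. WRKY12, a repressor of secondary wall formation in pith that also promotes flowering, had an OX TZP island alone, wholly inside the gene, with 164 reads per kb (137 to 194). WRKY13, which acts against WRKY12 in flowering time, had OX ZFHD10 islands alone. The densest of these, at chr4:18328501-18332750 with 361 reads per kb (343 to 379), lay in WRKY13 to 3.41% and within 1000 bp of BRI1 and PLS, to the second of which it was nearest. The other, with 220 reads per kb, crossed the opposite end of WRKY13. WRKY24, WRKY50 and WRKY68 also had an OX TZP island alone, with 149.5 to 161 reads per kb, each with an interval that included the list's median. The island of WRKY24 lay 657 bp outside the gene and nearest to AT5G41560. WRKY71, a regulator of branching and flowering, had an island of each line at opposite ends of the gene, with 191 reads per kb (153 to 236) in OX TZP and 253 (209 to 304) in OX ZFHD10. WRKY75, which acts in phosphate starvation and senescence, had overlapping islands of low density with the same midpoint, at 145 reads per kb (122 to 171) in OX TZP and 233 (211 to 256) in OX ZFHD10. WRKY43, WRKY56 and WRKY59 had no island.

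Group I includes WRKY33, a regulator of the phytoalexin camalexin and of resistance to necrotrophic fungi. Over WRKY33 an OX TZP island of 3600 bp, the longest of that line at a WRKY gene, covered the whole gene at chr2:16107851-16111450 with 628 reads, or 174 per kb (161 to 189). Its OX ZFHD10 islands lay at either end, chr2:16107801-16109000 with 267.5 reads per kb and chr2:16110801-16112450 with 385 (355 to 416). The denser of the pair lay 35 bp outside the gene and nearest to AT2G38480. Of the genes that act with WRKY33 in heat responses, WRKY26 had 158 reads per kb (137 to 181) in OX TZP and 352 (306 to 402) in OX ZFHD10, and WRKY25 had an OX ZFHD10 island alone, with 290 (261 to 321). WRKY2, a gene of pollen and early embryo development, and WRKY20 and WRKY32 had islands of each line that lay apart. At WRKY2 the OX TZP island chr5:22780901-22781750 began on the base after the end of an OX ZFHD10 island, and the densest OX ZFHD10 island, with 343 reads per kb (319 to 369), lay 814 bp outside the gene. WRKY20 had the lowest OX TZP density of any WRKY gene, 131 reads per kb (110 to 155), wholly inside the gene. WRKY32 had 138 (119 to 160) in OX TZP and 242 (219 to 266) in OX ZFHD10, at opposite ends. The OX TZP island of WRKY32 lay 564 bp outside the gene and nearest to NFD1. WRKY10, which controls endosperm growth, and WRKY34, a pollen gene, had no island of either line. WRKY3 and WRKY4 had their OX TZP islands outside the gene, with 184 (155 to 217) and 169 (146 to 194) reads per kb. The OX TZP island of WRKY4, by its midpoint, was nearest to ELF5A-1.

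Group III holds genes of senescence and salicylic acid responses, and OX TZP islands were found at WRKY30, WRKY38 and WRKY53. WRKY53, an activator of leaf senescence, had an OX TZP island inside the gene at chr4:12393151-12393750 with 177 reads per kb and another 919 bp outside with 180 (160 to 201), both overlapping OX ZFHD10 islands of 300 (272 to 330) and 278. WRKY38, a negative regulator of basal defence, had islands that overlapped outside the gene, with 167 reads per kb (139 to 199) in OX TZP and 330 (276 to 391) in OX ZFHD10. A further OX TZP island of WRKY38, with 153 reads per kb (130 to 179), lay wholly inside the gene. WRKY30, which responds to oxidative stress, had an OX TZP island alone with 184 (157 to 215). WRKY46, WRKY54 and WRKY70, which act together in brassinosteroid-driven growth and drought responses, all had OX ZFHD10 islands across an end of the gene and no OX TZP island. Their densest OX ZFHD10 islands had 279 (251 to 308), 291 (243 to 345) and 278 (253 to 305) reads per kb in that order, each with an interval that included the list's median. The neighbours WRKY55 and WRKY54 lie 919 bp apart with no gene between them, and each had a separate OX ZFHD10 island on its outer side, which at WRKY55 held 320 reads per kb (285 to 358), 78 bp outside the gene and nearest to CTEXP. WRKY67 and WRKY64, also neighbours, at 3857 bp, had no island. No island was counted for more than 1 WRKY gene.

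Of the 52 OX TZP islands at WRKY genes, 26 crossed an end of the gene, 15 lay outside, 9 inside and 2 spanned it. Of the 94 OX ZFHD10 islands, 63 crossed an end, 23 lay outside, 6 inside and 2 spanned the gene. Taking the densest island per gene, 48.7% crossed an end in OX TZP at WRKY genes against 41.4% at all genes, and in OX ZFHD10 70.4% against 67.7%. Inside the gene lay 15.4% against 22.3% in OX TZP and 1.85% against 3.19% in OX ZFHD10. Outside lay 30.8% against 34.4% in OX TZP and 24.1% against 26.0% in OX ZFHD10. The whole gene was spanned by 5.13% against 1.96% in OX TZP and 3.70% against 3.08% in OX ZFHD10. The midpoint of 39 OX TZP islands (75.0%) and 61 OX ZFHD10 islands (64.9%) was nearest to the WRKY gene itself among protein-coding genes within 1000 bp. Another protein-coding gene lay within 1000 bp of 20 of the 52 and 49 of the 94 islands, so that these could belong to either gene. An island centred nearest to it was found for 34 WRKY genes in OX TZP (50.7%, against 31.2% of all genes) and for 45 in OX ZFHD10 (67.2%, against 44.3%).

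At the 29 WRKY genes with overlapping islands, the pair with the longest overlap shared a median of 800 bp, or 97.1% of the OX TZP island and 70.6% of the OX ZFHD10 island. In 14 of them the OX TZP island lay wholly inside the OX ZFHD10 island. The midpoints lay a median of 250 bp apart, with 0 bp at WRKY75 and 25 bp at WRKY40 and 2025 bp at WRKY23. These overlap and midpoint values were taken at WRKY genes only, so they are not set against all genes. Across the 34 WRKY genes with an island of each line, the densities of the densest islands correlated with Spearman's rho of 0.24 and Pearson's r of 0.33. Over all 10075 such protein-coding genes rho was 0.13. These points share their libraries and any control library of the calls, and the values are descriptions.

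Genes that act with WRKY factors were described from a list of 49: kinases upstream of them, VQ motif proteins that bind them, salicylic acid signalling genes and known WRKY targets. Of these, 26 had an OX TZP island (53.1%, against 47.2% of all genes) and 41 an OX ZFHD10 island (83.7%, against 65.9%). The median gene length was 2743 bp for the 49 genes and 3561 bp for the salicylic acid genes, against 2078 bp for all genes. The part of gene length in these shares was not tested. The kinase genes had islands of OX TZP in 7 of 13 cases and of OX ZFHD10 in 12. At MPK3, a MAP kinase that phosphorylates WRKY33, the densest OX TZP island reached 253 reads per kb (212 to 298), rank 129, and the densest OX ZFHD10 island 328 (302 to 355). CPK6, a calcium-dependent kinase, had an OX ZFHD10 island of 534 reads per kb (494 to 577), rank 105, and MKK9 one of 462 (427 to 499). All 11 salicylic acid genes had an OX ZFHD10 island, and 7 had an OX TZP island. EDS5, the transporter gene, had its densest OX ZFHD10 island outside the gene, with 492 reads per kb (462 to 524). ICS1 (EDS16), the synthesis gene, had 397 (365 to 430) in OX ZFHD10. The densest OX TZP islands of the 7 genes had a median of 153 reads per kb, and none stood above the median of the list. Over all genes with an OX TZP island the median was 164, and 6878 of 12963 stood above that of the list. The VQ genes had islands of OX TZP in 6 of 11 cases and of OX ZFHD10 in 10, with the densest OX ZFHD10 island at AT1G28280, at 469 reads per kb (431 to 510). Of the targets, 6 of 14 had an OX TZP island and 8 of 14 an OX ZFHD10 island. The defence genes PAD3, CYP71A13, FRK1 and PR1 and the abscisic acid gene ABI4 had neither. ABI5 had an OX ZFHD10 island alone, with 434 reads per kb (408 to 461), while ACS6, an ethylene synthesis gene, had 212 (174 to 256) in OX TZP and 297.5 (267 to 330) in OX ZFHD10. HY5, the light regulator bound by WRKY36, had overlapping islands with 177 (150 to 206) in OX TZP and 331 (288 to 378) in OX ZFHD10. PHO1, the phosphate exporter gene repressed by WRKY6, had an OX TZP island alone, with 157 (134 to 181).

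Among members not yet named with values, those with an OX ZFHD10 island alone were WRKY19, WRKY58, WRKY9, WRKY61, WRKY45, WRKY51, WRKY41, WRKY62 and WRKY66. Their densest islands ran from 210 reads per kb at WRKY58 to 344 at WRKY9, the island of WRKY9 being nearest to AT1G68140. WRKY31, WRKY47 and WRKY57 had overlapping islands, with 167 to 180 reads per kb in OX TZP and 259 to 325 in OX ZFHD10. WRKY49 had an OX TZP island inside the gene with 163 and an OX ZFHD10 island outside it with 224, which lay apart.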

How the data were processed

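Groups were taken from the genotype label, 1 library each. Per the labels' protocols, fixation was in 1% formaldehyde (15 minutes), 1 ng of precipitated DNA was amplified over 12 PCR cycles, and reads were single-end and 75 bp long. Without roles, the submitters' processing notes list cutadapt 1.5, Bowtie 0.12.7, SICER 1.1, HOMER and TAIR10. The deposited lists' names carry the caller's settings: windows of 50 bp, gaps up to 200 bp, false discovery rate 0.1. Weak islands are therefore included, and island length can depend on depth. The authors deposited 1 whole number per island, read here as its read count, unscaled, because it has the values and place of a count in SICER output. The smallest was 47 (OX TZP) and 55 (OX ZFHD10).

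Density is the read count over island length, per kb, and positions were counted from 1. Genes came from a table of TAIR10.1, whose positions were checked against the lists: shifting OX ZFHD10 midpoints along each chromosome put fewest of them inside genes at a shift of at most 50 bp. The table holds no strand or sequence, so planned promoter motifs, protein motifs and positions relative to the start were not analysed here. Shares carry 95% Wilson intervals, and densities 95% exact Poisson intervals. Wilson intervals treat genes as a sample, although the members are the whole set by the rule. Poisson intervals cover counting error only, and PCR copies are not independent molecules. Members and lists were chosen with earlier results of these data known. Values were given for the 10 densest members per line, the 10 best rank sums, the densest member of each group, members with no island or an OX TZP island alone, neighbours, and 16 family genes with known roles. Other members were named after their values were seen. Python 3.11.15, pandas 2.3.3 and SciPy 1.17.1 were used, and the overlap step was tested on simulated lists.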

Additional observations from a re-analysis of the deposited data

How the results depend on the processing

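Alternatives changed the window, the overlap, the assignment, the islands kept and the members. Leaving out members that share an island removed none and is not counted. Of the 37 recomputed WRKY shares, all stood above the share of all genes under the same setting, and 24 stayed inside the Wilson interval of the reported share. The others follow, with WRKY genes before all genes. Over gene bodies alone, 37.3% had islands of each line, against 24.7%. With 2000 bp to either side, 76.1% had an OX TZP island, against 57.3%, and 67.2% islands of each line, against 47.1%. With each island given to its nearest gene, 67.2% had an OX ZFHD10 island, against 44.3%, 37.3% islands of each line, against 18.9%, and 31.3% overlapping ones, against 12.9%. Among islands above the median density, these shares were 44.8% for OX TZP, against 25.1%, 62.7% for OX ZFHD10, against 39.8%, 34.3% for each line, against 13.9%, and 31.3% overlapping, against 9.82%. Among islands above the median number of reads, they were 41.8% for OX TZP, against 28.6%, 68.7% for OX ZFHD10, against 39.9%, and 35.8% for each line, against 15.5%. All 22 recomputed medians of density stayed inside the counting interval of the reported one. That interval ran from 154 to 206 reads per kb in OX TZP and from 270 to 327 in OX ZFHD10. It covers counting error and not the spread over genes. The medians of all genes, 164 and 278, also lay inside it, so that staying within it shows little. Of the 22 recomputed medians, 21 were above the median of all genes under the same setting. The exception was OX ZFHD10 among islands above the median density, at 313 against 316 reads per kb. Adding the 5 family genes whose WRKY number is a synonym (ZAP1, TTG2, TTR1, RRS1 and ABO3), chosen after seeing the data, gave 59.7% in OX TZP and 81.9% in OX ZFHD10. TTG2, or WRKY44, a gene of leaf hairs and seed coat, had 157.5 reads per kb in OX TZP and 181 in OX ZFHD10. No paired analysis was possible because each line had 1 library.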
